A study of Mus musculus with 9 samples.

Results

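Hepatic stellate cells are the vitamin A storing pericytes of the liver sinusoid, and 10 genes that mark them or their activation were followed through 9 liver libraries. The 10 members were taken by symbol from a table of 25781 genes, and all 10 were found and had enough reads to be tested. Acta2, Vim and Des encode cytoskeletal proteins, Lrat makes stored retinyl esters, Tgfb1 and Pdgfrb encode a ligand and a receptor, and Timp1, Lox, Dcn and Lum encode proteins that protect, cross-link or organise extracellular matrix. The livers came from Swiss mice aged 10 to 12 weeks in 3 groups of 3 libraries. One group was the control, a second received 40 mg/kg of β-CYP, and the third, called the selenite group, received 40 mg/kg of β-CYP and 50 µg/kg of sodium selenite (Na2SeO3). The labels leave β-CYP unexplained, name no vehicle for the controls and tie no library to an animal. A p-value here therefore rests on the spread among libraries, part or all of which may be technical.

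In a healthy liver, quiescent stellate cells hold retinyl esters in lipid droplets. On injury they can take on a myofibroblast-like state, in which smooth muscle actin appears, platelet-derived growth factor drives proliferation through its β receptor, and transforming growth factor β drives matrix production. TIMP1, an inhibitor of matrix metalloproteinases, is a textbook product of the activated cell, whereas decorin and lumican are collagen-binding proteoglycans that fibroblasts of resting tissue also make.

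The bases just upstream of the start site are shown for the 4 members that were higher in β-CYP than in control by limma's test, so that their proximal promoters can be set side by side. Each line gives bases -150 to -1 relative to the RefSeq start site, 5′ to 3′ on the gene's strand, in build GRCm38.p6. Capitals mark matches to the searched motifs, on either strand. The windows are chr19:34255374-34255523 (minus strand) for Acta2, chrX:20870016-20870165 (plus strand) for Timp1, chr2:13574161-13574310 (plus strand) for Vim and chr1:75360142-75360291 (plus strand) for Des.
Acta2: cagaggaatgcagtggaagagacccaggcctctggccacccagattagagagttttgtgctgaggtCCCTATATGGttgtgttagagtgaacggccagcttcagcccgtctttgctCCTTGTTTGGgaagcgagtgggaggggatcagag
Timp1: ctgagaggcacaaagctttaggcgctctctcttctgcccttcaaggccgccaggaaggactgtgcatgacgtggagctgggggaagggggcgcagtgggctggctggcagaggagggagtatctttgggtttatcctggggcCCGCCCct
Vim: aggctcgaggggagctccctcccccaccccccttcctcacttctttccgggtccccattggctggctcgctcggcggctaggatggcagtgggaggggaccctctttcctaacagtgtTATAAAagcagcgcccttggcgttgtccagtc
Des: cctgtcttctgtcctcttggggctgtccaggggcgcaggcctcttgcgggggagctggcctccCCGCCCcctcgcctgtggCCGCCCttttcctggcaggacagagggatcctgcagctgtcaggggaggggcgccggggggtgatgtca

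The capitals in Acta2 are 2 matches to the CArG box, the site bound by serum response factor, when 1 G or C is allowed in its core. They lie at -84 to -75 and at -34 to -25. Of 32851 RefSeq promoters of this length, 5.11% held such a match and 0.916% held an exact CArG box, which none of the members searched had. Vim carried TATAAA at -32 to -27, a motif found in 7.57% of promoters. Timp1 had 1 and Des 2 matches to GGGCGG, read on the other strand as CCGCCC, against 28.6% of promoters with at least 1. RefSeq promoters were searched for 6 members, the 4 shown and Tgfb1 and Lrat. Those of Pdgfrb, Lox, Dcn and Lum were not searched. GGGCGG was also matched in Tgfb1 and Lrat, which did not pass in β-CYP against control. The AP-1 core TGANTCA was in none of these 6 windows and in 4.24% of all promoters. A match is a description of letters and not a measured binding site.

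The libraries held 28630269 to 36029560 reads. Values below are scaled counts, which are reads divided by the authors' factor for each library. Control replicate 2 stood apart in the rRNA-like transcript AY036118, with 1805976 reads against 26685 to 71931 in the other 8 libraries. In β-CYP against control, 4 of the 10 members rose and none fell (none lower at an unadjusted p of 0.05 either, nor with limma voom), against 16.3% of all 20145 genes tested that passed limma's test (7.72% higher and 8.58% lower). The median log2 change was 0.36 over the members and -0.0013 over all genes. Without control replicate 2, 3 members rose, with Vim lost. In selenite against β-CYP, 3 members rose and none fell (1 lower, Timp1, at an unadjusted p of 0.05 and with limma voom), where 23.9% of genes passed (11.6% higher and 12.3% lower), and the medians were 0.13 and 0.017. In selenite against control, 7 members rose and none fell (0 lower at an unadjusted p of 0.05 and 0 with limma voom), where 28.9% of genes passed (14.4% higher and 14.5% lower), and the medians were 0.56 and 0.027. Without control replicate 2, 5 members rose in that last comparison, and without control replicate 1 or selenite replicate 1 also 5. The libraries of the groups compared did not overlap for 6 of the 10 members in the first comparison, 5 in the second and 8 in the third, against 31.6%, 37.8% and 41.8% of all genes tested. The 3 comparisons share groups and are not independent of each other. With scaling to equal library totals the median log2 change of all genes was 0.14 in selenite against β-CYP and 0.15 in selenite against control. There 3200 genes were higher and 1324 lower than in β-CYP (2337 and 2468 with the authors' factors), and 3948 higher and 1757 lower than in control (2908 and 2915). The members called were then 4 in β-CYP against control, 4 in selenite against β-CYP and 8 in selenite against control.

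**Figure D1:**
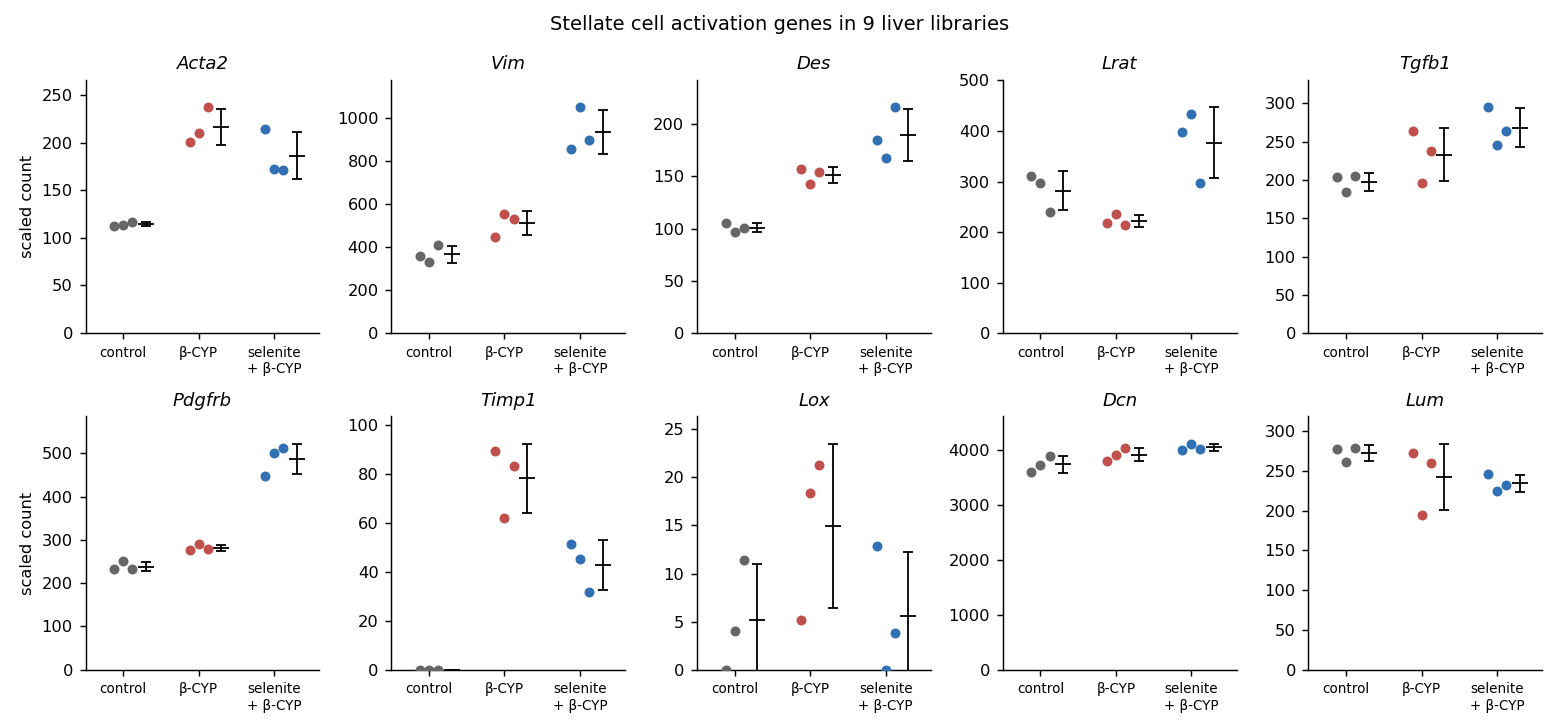
Scaled counts (vertical axes, from 0, one scale per gene) of the 10 members in the 3 libraries of control, β-CYP and selenite with β-CYP. Points are libraries, the horizontal tick is the group mean and the bar 1 SD (cut at 0 for Lox). Acta2 is high in both treated groups, Vim and Pdgfrb are highest in the selenite group, Lrat is lowest in β-CYP, and Timp1 is at 0 in every control library.

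The contractile and filament genes rose together in β-CYP. Acta2, smooth muscle α-actin and the usual marker of the activated stellate cell, had 112, 114 and 117 scaled counts in control, 201, 210.3 and 238 in β-CYP and 215, 172 and 172 in selenite. Every treated library was above every control library, and the treated groups overlapped. The log2 change in β-CYP was 0.91 ± 0.12 (SE of limma's model, here and below, n = 3 per group, adjusted p = 0.000647), a fold of 1.88. Against β-CYP the selenite group differed by -0.22 ± 0.12 (limma adjusted p = 0.249, 95% interval -0.49 to 0.055), and against control by 0.69 ± 0.12 (limma adjusted p = 0.00202). In a bulk liver library, more cells of a type and more RNA per cell cannot be told apart. Which cells supplied the Acta2 reads was not tested either. All fold changes are on the scale of log2(scaled count + 1), which understates changes of low genes.

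Acta2 is nearly identical to other actin genes, so its value depends on how shared reads were counted, which no label or header states. The skeletal actin Acta1 had 3.02 to 5.71 scaled counts in control, 2.08 to 13.3 in the β-CYP libraries and 235 to 279 in those of the selenite group. The enteric actin Actg2 ran from 10.4 to 20.1 and the cardiac actin Actc1 from 0 to 19.2 over all 9 libraries. Both of these last paralogs overlapped between all 3 groups, unlike Acta2. The Acta1 reads of the selenite libraries moved with other skeletal muscle transcripts, described below.

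Des, desmin, the muscle-type intermediate filament that also marks rodent stellate cells, had 105, 96.6 and 101 scaled counts in control, 157, 143 and 154 in β-CYP and 185, 168 and 217 in selenite. The 3 groups did not overlap. It rose by 0.58 ± 0.12 in β-CYP (limma adjusted p = 0.00991) and stood 0.32 ± 0.12 higher in selenite than in β-CYP, which did not pass (limma adjusted p = 0.0988, 95% interval 0.040 to 0.59). With equal library totals that last difference passed (adjusted p = 0.0415). Against control the selenite group was higher by 0.90 ± 0.12 (limma adjusted p = 0.000412). Transcripts of skeletal muscle, which also makes desmin, were present in the selenite libraries: the summed level of 9 muscle genes was 944 to 1012 scaled counts there, against 18.3 to 27.3 in control and 13.5 to 24.5 in β-CYP. Ckm, Myh4, Tnnt3, Tnnc2 and Atp2a1 were at 0 in all control and β-CYP libraries. The part of muscle RNA in the values of Des was not tested.

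Vim, vimentin, the filament of mesenchymal cells and also of leukocytes and endothelium, had 357, 330.2 and 409 scaled counts in control, 447, 551 and 532 in β-CYP and 855, 1052 and 897 in selenite. The groups followed each other without overlap, and the selenite libraries were the highest. Its log2 change in β-CYP was 0.48 ± 0.11 (limma adjusted p = 0.0183). That call was lost without control replicate 1 (adjusted p = 0.0605), control replicate 2 (0.0708), β-CYP replicate 2 (0.0700) or β-CYP replicate 3 (0.0670), and without the intensity trend (0.0549). The rise from β-CYP to selenite was 0.87 ± 0.11 (limma adjusted p = 0.000399, 1.83-fold) and selenite against control gave 1.35 ± 0.11 (limma adjusted p = 1.54e-05, 2.55-fold). Sums of leukocyte markers were also highest in the selenite group. The sum of 10 Kupffer cell and macrophage genes was 14111 to 14265 in control, 13459 to 13689 in the β-CYP libraries and 16949 to 17060 in those of the selenite group, with 8 of 10 higher in selenite than in β-CYP. The sum of 12 lymphocyte genes was 496 to 543, 467 to 541 and 754 to 828 in the same order, with 3 of 12 higher. Neutrophil genes summed to 165 to 171, 529 to 587 and 727 to 841, with 5 of 9 tested higher in β-CYP than in control and 1 of 9 higher in selenite than in β-CYP. Of the 10 macrophage genes, 3 were lower and 0 higher in β-CYP than in control (1 and 0 with equal library totals). Of all genes tested, 7.72% were higher in β-CYP than in control and 11.6% in selenite than in β-CYP. The part of leukocytes in the values of Vim was not tested.

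The retinoid gene ran the other way in β-CYP. Lrat, lecithin retinol acyltransferase, which esterifies retinol for storage and is a defining gene of hepatic stellate cells, had 311, 297 and 239 scaled counts in control, 217, 235 and 214 in β-CYP and 399, 434 and 298 in selenite. Each β-CYP library was below each library of the other groups, and selenite replicate 3 lay inside the control range. The log2 difference of β-CYP from control, -0.34 ± 0.15, did not pass (limma adjusted p = 0.181, 95% interval -0.68 to 0.0016). From β-CYP to selenite Lrat rose by 0.75 ± 0.15 (limma adjusted p = 0.00551, 1.68-fold). Selenite against control gave 0.41 ± 0.15 and did not pass (limma adjusted p = 0.0723). It passed without selenite replicate 3 (log2 change 0.57, adjusted p = 0.0133), with equal library totals (0.0282) and with the replicate number as a block (0.0286).

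Of the signalling members, the receptor was highest in the selenite group and the ligand passed in selenite against control alone. Pdgfrb, the platelet-derived growth factor receptor β of stellate cells and other pericytes, had 233, 251 and 232 scaled counts in control, 276, 290.0 and 279 in β-CYP and 447, 502 and 513 in selenite. The 3 groups did not overlap. The step from control to β-CYP, 0.24 ± 0.081, did not pass (limma adjusted p = 0.0788, 95% interval 0.057 to 0.42). The step from β-CYP to selenite, 0.79 ± 0.081, did (limma adjusted p = 7.48e-05, 1.72-fold), and so did selenite against control, 1.03 ± 0.081 (limma adjusted p = 9.06e-06, 2.04-fold).

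Tgfb1, the cytokine that drives collagen production, had 204, 184 and 205 scaled counts in control, 264, 196 and 238 in β-CYP and 296, 245 and 264 in selenite. β-CYP overlapped both other groups, and selenite did not overlap control. The log2 changes were 0.23 ± 0.13 in β-CYP (limma adjusted p = 0.292) and 0.21 ± 0.13 from β-CYP to selenite (limma adjusted p = 0.290), and neither passed. Selenite against control, 0.44 ± 0.13, passed (limma adjusted p = 0.0277). That call was lost without control replicate 1 (0.0549), control replicate 2 (0.0886), control replicate 3 (0.0548), selenite replicate 1 (0.0969) or selenite replicate 3 (0.0666), and with quantile normalization (0.0557). Macrophages and platelets also make this cytokine, and the macrophage sums given above were highest in the selenite group; their part was not tested.

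Among the matrix members, Timp1 separated the groups completely. It had no read in any of the 3 control libraries, 89.4, 62.3 and 83.2 scaled counts in β-CYP and 51.6, 45.2 and 31.6 in selenite. The 3 groups did not overlap, with β-CYP on top. Set against a floor of 3 counts per control library, the 237 reads of β-CYP made it at least 24.8-fold higher and the 138 reads of selenite at least 13.5-fold higher (limma adjusted p = 6.79e-07 and 1.02e-06). These bounds cover counting error only. Which cells of the liver supplied the Timp1 reads was not tested. Between the treated groups the log2 difference of selenite from β-CYP was -0.87 ± 0.31 and did not pass (limma adjusted p = 0.0784, 95% interval -1.58 to -0.16). It passed with a pseudocount of 8 (adjusted p = 0.0261), with a fit of those groups alone (0.0405), with limma voom on the recovered reads (0.0179) and without the intensity trend (0.0241), and its adjusted p reached 0.217 in the other alternatives. Timp1 lies within an intron of Syn1 on the opposite strand in GENCODE, and the strand setting of the counting is not given. Syn1, a synapse gene, had 8.05 to 24.0 scaled counts in control, 16.6 to 28.6 in the β-CYP libraries and 19.2 to 20.3 in those of the selenite group, so control libraries with no Timp1 read did hold reads counted for Syn1.

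Lox, lysyl oxidase, which starts the cross-linking of collagen and elastin, had few reads. Its values were 0, 4.03 and 11.4 scaled counts in control, 5.2, 18.4 and 21.3 in β-CYP and 12.9, 0 and 3.83 in selenite. The groups overlapped, and no comparison passed. The log2 change in β-CYP was 1.81 ± 1.13 (limma adjusted p = 0.350, 95% interval -0.73 to 4.35) and so includes differences of either sign. Annotated antisense transcripts overlap exons of Lox and Des and surround Lrat. These transcripts have no row in the table, and without the strand setting their reads cannot be told apart from those of the members.

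The collagen-binding proteoglycans stayed near their control levels. Dcn, decorin, had 3596, 3726 and 3892 scaled counts in control, 3800, 3913 and 4035 in β-CYP and 4007, 4117 and 4013 in selenite. It has the most reads of the members and the smallest standard error, 0.038. The log2 change in β-CYP was 0.067 (limma adjusted p = 0.295, 95% interval -0.018 to 0.15) and that from β-CYP to selenite 0.047 (limma adjusted p = 0.440, 95% interval -0.038 to 0.13). Selenite against control, 0.11, passed (limma adjusted p = 0.0481). The call was lost without any of control replicates 1 and 2 (0.146 and 0.104), β-CYP replicates 1 and 2 (0.0506 and 0.0675) and selenite replicates 1, 2 and 3 (0.0793, 0.132 and 0.0856). It was also lost with no filter (0.0604), in a fit of those groups alone (0.0681) and with no intensity trend (0.193). From β-CYP to selenite it passed with quantile normalization (0.0221).

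Lum, lumican, had 277, 262 and 279 scaled counts in control, 273, 195 and 261 in β-CYP and 246, 225 and 232 in selenite. Each selenite library was below each control library, but β-CYP spanned both. Its log2 differences were -0.18 ± 0.13 in β-CYP (limma adjusted p = 0.412), -0.037 ± 0.13 from β-CYP to selenite (limma adjusted p = 0.892) and -0.22 ± 0.13 from control to selenite (limma adjusted p = 0.242, 95% interval -0.50 to 0.066). No comparison passed for Lum.

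**Figure D2:**
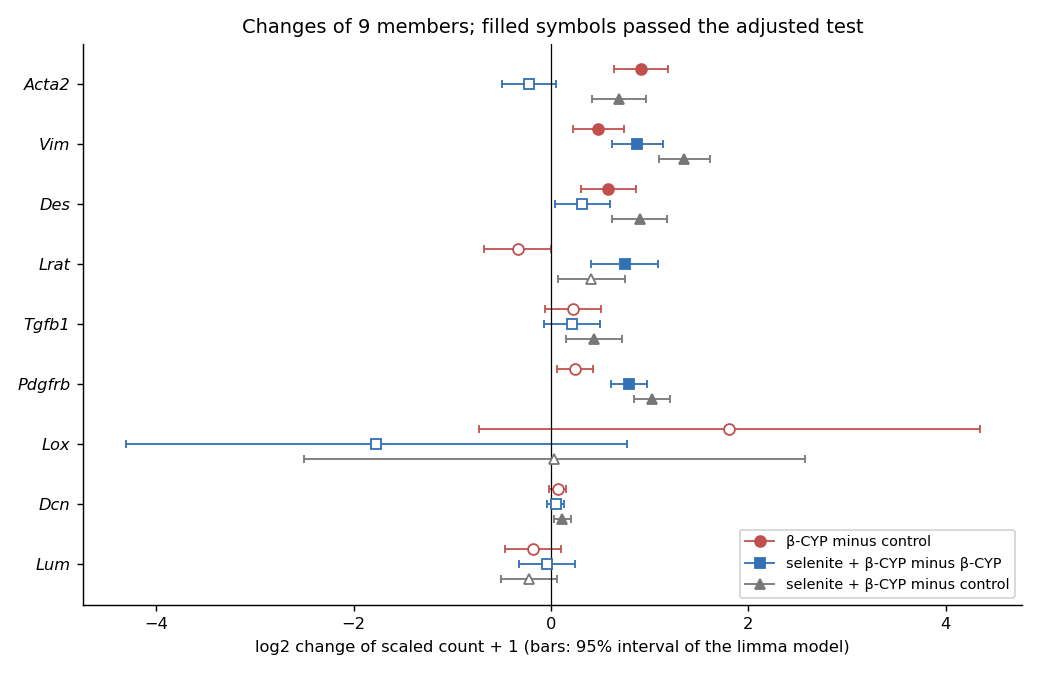
Log2 change of 9 members (horizontal axis, log2 of scaled count + 1) in the 3 comparisons, with the 95% interval of limma's model as a bar. Filled symbols passed at an adjusted p of 0.05 and open symbols did not. Timp1 is left out because control is at 0. Vim, Lrat and Pdgfrb pass from β-CYP to selenite, and the intervals of Lox span 0 in every comparison.

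Per kilobase of annotated exon, the members ranged over a wide span in control. Dcn stood at 640.3 scaled counts per kb, Lum at 111, Vim at 77.1, Lrat at 52.7, Acta2 at 52.0, Pdgfrb at 43.5, Tgfb1 at 39.2, Des at 26.9 and Lox at 1.08, with Timp1 at 0. In β-CYP the order below Dcn was Vim at 108, Lum at 99.2, Acta2 at 98.5 and Timp1 at 88.2. In the selenite group it was Vim at 197, Lum at 95.7, Pdgfrb at 88.9 and Acta2 at 84.8, with Timp1 at 48.2. Neighbours in these orders were not tested against each other.

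Other genes of the stellate cell programme moved in both directions. Of 20 other genes listed for stellate cell identity, 5 rose and 3 fell in β-CYP, with a median log2 change of 0.15, and 4 rose and 3 fell from β-CYP to selenite (median -0.010). With equal library totals 5 rose and 1 fell in β-CYP, and 6 rose and 1 fell from β-CYP to selenite (median 0.12). Hand2 and Lhx2, transcription factors of stellate cells, were present in all libraries at 97.6 to 149 and 29.7 to 50.7 scaled counts and passed in neither comparison. Reln, the secreted protein reelin, was lower in selenite than in β-CYP by 0.22 ± 0.047 on the log2 scale (limma adjusted p = 0.0069). With equal library totals the Reln call was lost, as the 1 listed gene still lower was Steap4. Steap4, a metalloreductase that hepatocytes also express, had 6530 ± 47.8 scaled counts in control (mean ± SD, n = 3), 52377 ± 236 in β-CYP and 33111 ± 548 in selenite (log2 changes 3.00 and -0.66, limma adjusted p = 5.23e-13 and 9.14e-09). Ngfr, the neurotrophin receptor p75, had 83.0, 119.8 and 88.0 scaled counts in control and 163, 167 and 154 in β-CYP, where it was higher (limma adjusted p = 0.0118). Hgf, the hepatocyte growth factor that stellate cells release, had 300.4 ± 16.6 in β-CYP and rose to 405 ± 18.3 in selenite (log2 change 0.43 ± 0.096, limma adjusted p = 0.00915). Nes, the filament protein nestin, had 38.5, 27.6 and 26.8 scaled counts in β-CYP and 55.2, 47.0 and 61.3 in selenite (log2 change 0.81, limma adjusted p = 0.0435), and the call was lost without any of 7 libraries, all but control replicate 2 and β-CYP replicate 1 (adjusted p 0.0514 to 0.130), with quantile normalization (0.109) and with no filter (0.0609).

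Of 14 smooth muscle genes, 3 rose and 1 fell in β-CYP (median 0.14), and 5 rose and 2 fell from β-CYP to selenite (median 0.36; 5 and 0 with equal library totals). Tagln, the actin-binding transgelin, had 206, 152 and 226 scaled counts in control, 331, 380 and 340.1 in β-CYP and 387, 373 and 365 in selenite. Like Acta2 it was higher in β-CYP than in control (log2 change 0.86 ± 0.14, limma adjusted p = 0.00203), and the treated groups overlapped. Tpm2, β-tropomyosin, which skeletal muscle makes as well, was at 41.5, 38.3 and 51.4, then 75.9, 101 and 86.0, then 118, 164 and 130.3, and rose in β-CYP by 0.99 ± 0.19 (limma adjusted p = 0.00628). Its further rise in selenite, 0.64 ± 0.19 (limma adjusted p = 0.0381), was lost without control replicate 1 (0.0513), β-CYP replicates 1 and 3 (0.121 and 0.0931) or selenite replicates 2 and 3 (0.133 and 0.0782), with quantile normalization (0.101) and with the replicate block (0.0522). The cross-linker filamin A, Flna, rose at both steps, by 0.35 ± 0.062 and 0.38 ± 0.062 (limma adjusted p = 0.00393 and 0.00151). Smtn, smoothelin, and Actn1, α-actinin, rose from β-CYP to selenite by 0.80 ± 0.16 and 0.54 ± 0.070 (limma adjusted p = 0.00544 and 0.00036), and their changes in β-CYP, 0.04 and -0.18, did not pass. Myh11, the smooth muscle myosin heavy chain, had 110.3, 89.6 and 81.1 scaled counts in control, 186, 115 and 168 in β-CYP and 134, 84.9 and 103 in selenite and passed in neither comparison (limma adjusted p = 0.0636 and 0.133).

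Markers of other mesenchymal cells were summed in the same libraries. The 10 portal fibroblast genes summed to 413 to 501 scaled counts in control, 555 to 617 in the β-CYP libraries and 516 to 667 in those of the selenite group, led by Dpt, Entpd2 and Eln. Of these 10, 1 rose in β-CYP, Dpt (dermatopontin, log2 change 0.59 ± 0.15, limma adjusted p = 0.0254). With equal library totals 0 of 10 passed in β-CYP. The median log2 change of these 10 in β-CYP was 0.36, and that of the stellate members was also 0.36. From β-CYP to selenite the medians were -0.086 and 0.13. For the mesothelial and endothelial genes below, the medians in β-CYP were -0.69 and 0.042. None of the 10 portal fibroblast genes passed from β-CYP to selenite with the authors' factors. The same held at an unadjusted p of 0.05 and with limma voom. The 8 mesothelial genes summed to 142 to 146, 107 to 132 and 85.8 to 125, led by Krt19, Gpm6a and Upk3b, and none passed in either comparison with limma or limma voom (1 at the first step and 2 at the second at an unadjusted p of 0.05). The part of these cells in the member values was not tested. The 10 endothelial genes summed to 11844 to 12202, 11828 to 12172 and 12100 to 12227 in the same order, with 4 of 10 higher and 3 lower in β-CYP (2 and 2 with equal library totals) and 3 higher and 1 lower from β-CYP to selenite. Beside these, 11 pancreatic acinar genes summed to 35176 to 36299 in selenite, led by Ctrb1, Pnlip and Cela1, against 983 to 1157 in control and 1156 to 1234 in β-CYP. Of these, Prss2, Cela3b, Cpa1, Cpb1, Pnlip and Pnliprp1 were at 0 in every control and β-CYP library. The pancreas holds stellate cells and vessels of its own, and the part of pancreatic and muscle RNA in the selenite values of Vim, Pdgfrb, Lrat and Des was not tested. Spermatid genes, 8 in all, summed to 328 to 354 in control, 2.77 to 8.32 in the β-CYP libraries and 0 to 4.79 in those of the selenite group. The source of these control reads, and the part of such RNA in the control values of the members, was not tested. The 5 adipocyte genes summed to 277 to 355, 834 to 867 and 702 to 737, a sum led by Fabp4. Of these genes 1 was higher and 1 lower in β-CYP (median log2 change -0.99), and Adipoq, Plin1 and Retn were at 0 in all β-CYP libraries. From β-CYP to selenite 2 were higher and 0 lower. Of 9 hepatocyte genes, 5 rose and 2 fell in β-CYP, and 1 rose and 8 fell from β-CYP to selenite. With equal library totals 4 rose and 0 fell in β-CYP, and 1 rose and 4 fell from β-CYP to selenite.

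**Figure D3:**
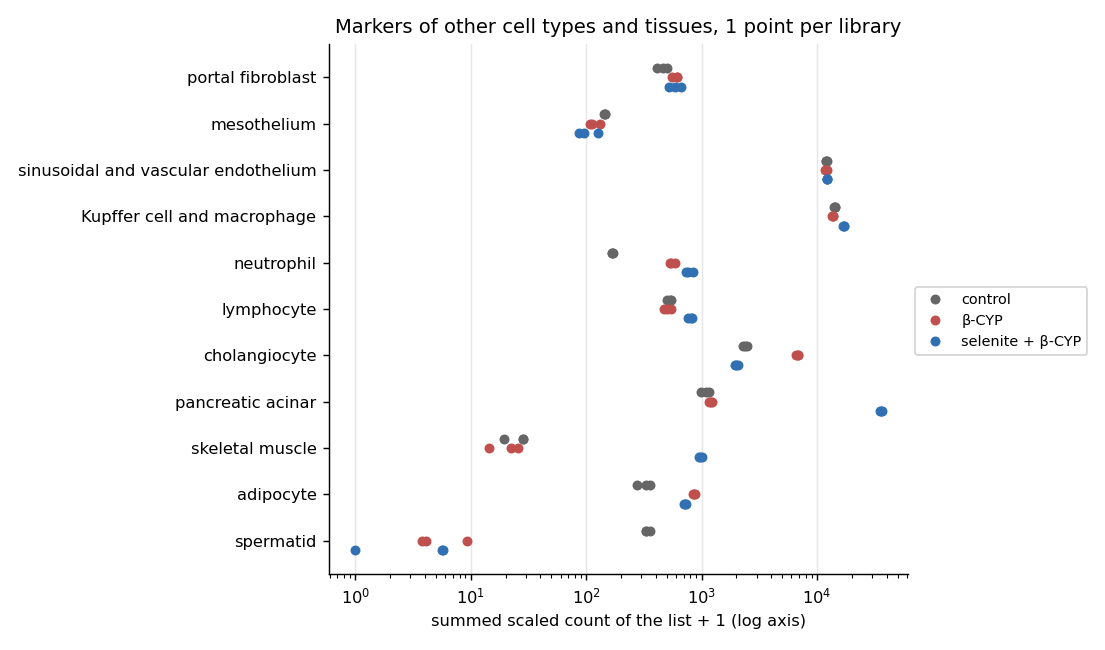
Summed scaled counts of marker lists of other cell types and tissues in the 9 libraries (logarithmic axis). Points are libraries coloured by group. Pancreatic acinar and skeletal muscle sums are high in the 3 selenite libraries, spermatid sums in the 3 controls, and the portal fibroblast, mesothelial and endothelial sums move far less.

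Among the platelet-derived growth factor genes beside Pdgfrb, 2 of 6 rose in β-CYP and none fell (median 0.36; 1 lower at an unadjusted p of 0.05 and 0 with limma voom), and 2 rose and 1 fell from β-CYP to selenite (median -0.084; 3 and 0 with equal library totals, 0 and 1 with quantile normalization). Pdgfra, the α receptor of fibroblasts and stellate cells, had 139, 183 and 134 scaled counts in control, 223, 255 and 223 in β-CYP and 277, 326 and 260 in selenite. Its rise in β-CYP was 0.63 ± 0.14 (limma adjusted p = 0.0145) and was lost without control replicate 1 (0.0548), control replicate 3 (0.0564) or β-CYP replicate 2 (0.0562). Pdgfc, a ligand of the α receptor, had 118, 130 and 155, then 212, 232 and 236, then 155, 165 and 173. It rose in β-CYP by 0.76 ± 0.12 (limma adjusted p = 0.00216) and fell back in selenite by 0.46 ± 0.12 on the log2 scale (limma adjusted p = 0.0216). That fall was lost without β-CYP replicate 2 (0.0645) or 3 (0.0698), without selenite replicate 1 (0.0689) or 2 (0.0548) and with equal library totals (0.0962). Pdgfa, another ligand, had 73 ± 12.0 scaled counts in β-CYP and 118 ± 16.3 in selenite (log2 change 0.69 ± 0.18, limma adjusted p = 0.0212), lost without β-CYP replicate 3 (0.0687) or selenite replicate 2 (0.0797) or 3 (0.0519), or with quantile normalization (0.0645). Pdgfb, the main ligand of the β receptor, had 26.0, 32.7 and 29.6 in β-CYP and 73.7, 36.9 and 79.5 in selenite (log2 change 1.01 ± 0.30, limma adjusted p = 0.0354). It was lost without any one library other than selenite replicate 2 (adjusted p 0.0508 to 0.126), and with quantile normalization (0.0665), no filter (0.0506), the groups compared fitted alone (0.0581), the replicate block (0.0617) and limma voom (0.0564).

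Of 23 other genes of the transforming growth factor β pathway, 2 rose and 4 fell in β-CYP (median -0.029), and 6 rose and 1 fell from β-CYP to selenite (median 0.18). With equal library totals 2 rose and 2 fell in β-CYP, and 7 rose and 0 fell from β-CYP to selenite. Smad3, the transcription factor that carries the signal to the nucleus, had 595, 622 and 611 scaled counts in control, 319, 369 and 339 in β-CYP and 559, 529 and 587 in selenite. It fell in β-CYP by 0.83 ± 0.073 on the log2 scale (limma adjusted p = 3.85e-05) and rose from β-CYP to selenite by 0.70 ± 0.073 (limma adjusted p = 7.91e-05). Tgfbr2, the type II receptor, followed the same order, with 1018 ± 16.5, 784 ± 46.5 and 982 ± 49.7 scaled counts (log2 changes -0.38 and 0.32, limma adjusted p = 0.00189 and 0.00332). Smurf1, a ubiquitin ligase of the pathway, had 606 ± 42.3, 502 ± 21.6 and 635 ± 43.2 (log2 changes -0.27 and 0.34, limma adjusted p = 0.0394 and 0.0101). With equal library totals its fall in β-CYP did not pass, as the 2 genes still lower were Smad3 and Tgfbr2. Smad7, the inhibitory Smad that the pathway itself induces, rose from β-CYP to selenite by 0.47 ± 0.11 (limma adjusted p = 0.0118). Tgfbi, a secreted target of the pathway, had 819 ± 45.6 scaled counts in control and rose to 1058 ± 56.7 in β-CYP (limma adjusted p = 0.00194). The ligands Tgfb2 and Tgfb3 were low, at 3.06 to 14.8 and 20.6 to 60.4 scaled counts over the 9 libraries, and passed in neither comparison.

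Other activation and matrix genes showed 5 of 19 higher and none lower in β-CYP (median 0.27; 2 lower at an unadjusted p of 0.05 and 0 with limma voom), and 6 higher and 2 lower in selenite than in β-CYP (median 0.26). Spp1, osteopontin, which bile duct cells also make, had 2211 ± 81.8 scaled counts in control, 6476 ± 163 in β-CYP and 1723 ± 54.6 in selenite, a rise and a fall (log2 changes 1.55 and -1.91, limma adjusted p = 8.57e-09 and 1.55e-09). It makes up most of a sum of 8 bile duct genes, which was 2262 to 2448, 6537 to 6899 and 1933 to 2072 in the 3 groups, with 2 and 0 of 8 higher and 0 and 1 lower at the steps. Tnc, the matrix glycoprotein tenascin C, had 41.9 ± 12.8, 24.7 ± 4.40 and 127 ± 16.8 scaled counts and rose from β-CYP to selenite by 2.33 ± 0.25 (limma adjusted p = 0.000104). The fibrillar collagens showed smaller changes. Col1a1 had 199 ± 13.1, 241 ± 4.98 and 333 ± 22.5 scaled counts, with a β-CYP change of 0.27 that did not pass (limma adjusted p = 0.0675) and a rise of 0.46 ± 0.089 in selenite (limma adjusted p = 0.0043). Col1a2 and Col3a1 passed in neither comparison, with log2 changes of -0.08 and 0.10 in β-CYP and 0.26 and 0.15 in selenite. Loxl4, a relative of Lox, had 5.06, 6.04 and 5.71 in control and 36.4, 12.3 and 12.0 in β-CYP (log2 change 1.5, limma adjusted p = 0.0465), a call lost without any one library other than β-CYP replicates 2 and 3 (adjusted p 0.0627 to 0.115). It was also lost with equal library totals (adjusted p = 0.0554), a pseudocount of 8 (0.0659), no filter (0.0688), the groups compared fitted alone (0.0997), the replicate block (0.0659), limma voom (0.133) and no intensity trend (0.0601).

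Of 15 other matrix proteases and their inhibitors, 7 rose and 3 fell in β-CYP (median 0.28), and 4 rose and 1 fell from β-CYP to selenite (median 0.19). Timp3, the matrix-bound relative of Timp1, had 511, 518 and 560.0 scaled counts in control, 704, 776 and 746 in β-CYP and 1199, 1177 and 1265 in selenite. It rose at both steps (0.49 ± 0.061 and 0.71 ± 0.061, limma adjusted p = 0.000453 and 2.2e-05), whereas Timp1 was lower in each selenite library than in each β-CYP library. Timp2 fell in β-CYP, from 638 ± 27.3 to 519 ± 43.9 scaled counts (limma adjusted p = 0.0384). A2m, the broad protease inhibitor α2-macroglobulin, had 2.83 ± 0.731, 58.5 ± 13.7 and 391 ± 49.9 (log2 changes 3.95 and 2.74, limma adjusted p = 4.05e-06 and 3.43e-05). Mmp8, the collagenase of neutrophils, had 0, 3.02 and 5.71 scaled counts in control and 24.96, 25.5 and 25.9 in β-CYP (log2 change 3.14 ± 0.60, limma adjusted p = 0.00579). Mmp12, the elastase of macrophages, had 5.2, 33.7 and 28.7 in β-CYP and 118, 111 and 113 in selenite (log2 change 2.63, limma adjusted p = 0.00872). Against control its 1.96 in β-CYP (limma adjusted p = 0.0474) was lost without any one library other than β-CYP replicate 1 (adjusted p 0.0781 to 0.153), and with every other alternative except quantile normalization and the filter at a mean of 10 (0.0523 to 0.158). Among the enzymes that cut collagen, Mmp14 rose at both steps (0.28 and 0.56, limma adjusted p = 0.0246 and 0.000289), and Mmp2 and Mmp13 passed in neither comparison.

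The small leucine-rich proteoglycans related to Dcn and Lum gave 1 of 8 lower and none higher at each step (medians -0.29 and -0.13; 0 higher also at an unadjusted p of 0.05 and with limma voom), and with equal library totals none passed from β-CYP to selenite. Fmod, fibromodulin, fell in β-CYP from 51.7 ± 3.17 to 25.6 ± 4.57 scaled counts (limma adjusted p = 0.00995). Omd, osteomodulin, was at 61.4, 42.9 and 74.9 in β-CYP and 28.5, 27.7 and 27.8 in selenite (log2 change -1.03 ± 0.27, limma adjusted p = 0.02004). That call was lost without β-CYP replicate 1 (0.0618) or 3 (0.0755), without selenite replicate 1 (0.0520), 2 (0.0571) or 3 (0.0573), and with equal totals (0.0520). Bgn, biglycan, the nearest relative of decorin, had 2956 ± 74.2, 3069 ± 58.4 and 2929 ± 147 scaled counts and passed in neither comparison.

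Of 18 genes of retinoid storage and turnover beside Lrat, 4 rose and 2 fell in β-CYP (median -0.024), and 3 rose and 5 fell from β-CYP to selenite (median -0.076; 3 and 1 with equal totals, median 0.05). Cyp26b1, which breaks down retinoic acid, had 206, 203 and 131 scaled counts in control, 84.2, 83.7 and 79.5 in β-CYP and 622, 684 and 663 in selenite. Like Lrat it was lowest in β-CYP and highest in selenite, and here both steps passed (-1.09 ± 0.16 and 2.98 ± 0.16, limma adjusted p = 0.00126 and 8.17e-07). Bco1, the enzyme that cleaves β-carotene to retinal, rose at both steps, from 433 ± 9.56 to 555 ± 13.0 and 1083 ± 39.2 (limma adjusted p = 0.00144 and 1.06e-06). Aldh1a1, the abundant hepatocyte retinal dehydrogenase, rose in β-CYP by 0.23 ± 0.024 and fell in selenite by 1.03 ± 0.024 on the log2 scale (limma adjusted p = 0.000145 and 3.11e-09). Pnpla2, the triglyceride lipase, rose in β-CYP by 0.39 ± 0.073 (limma adjusted p = 0.00512).

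**Figure D4:**
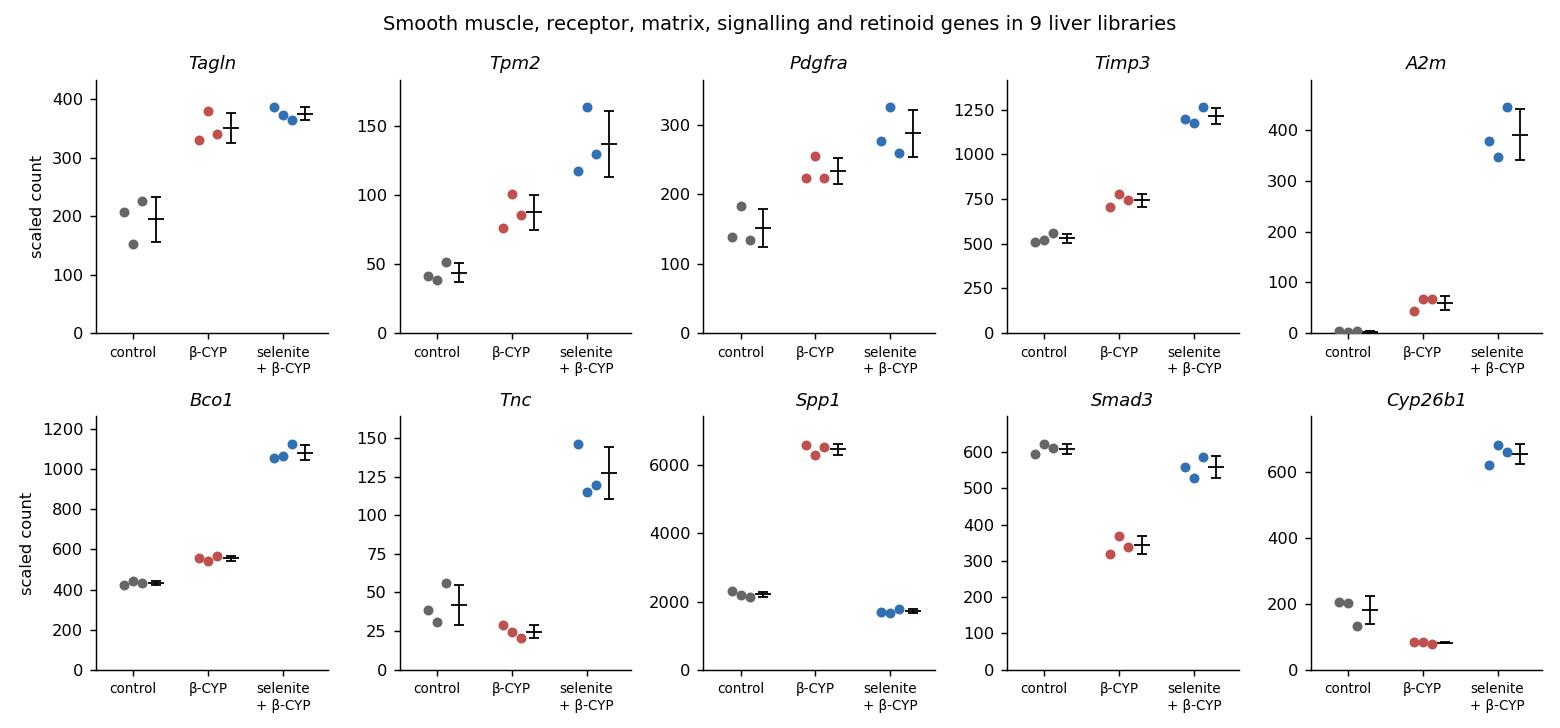
Scaled counts (vertical axes from 0, one scale per gene) of 10 genes from the lists beside the members, with points for libraries and the mean and 1 SD as a bar. Tagln is high in both treated groups, Timp3, A2m and Bco1 step up at both treatments, Spp1 is high in β-CYP alone, and Smad3 and Cyp26b1 are lowest in β-CYP.

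The genes whose log2 values followed each member most closely over the 9 libraries were mostly not matrix genes. Correlations over libraries that fall into 3 groups reflect the group differences, and they are given as descriptions. For Acta2 the nearest were the ribosomal protein gene Rps4x (Pearson r = 0.984) and Fermt2 (0.982), a kindlin that activates integrins. For Timp1 they were the metallothionein Mt2 (0.998), Apoa4 (0.997), an apolipoprotein, and the interleukin 1 receptor Il1r1 (0.996). For Pdgfrb they included the tubulin Tubb6 (0.993), for Vim the receptor Erbb3 (0.993), for Des the actin-binding Lima1 (0.986), for Tgfb1 the kinase Limk1 (0.979), which acts on actin through cofilin, and for Lrat the actin-capping Tmod3 (0.981). Dcn was nearest to the nuclear pore gene Nup214 (0.978) and Lum to Plk5 (0.955). Lox had too few reads for this description.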

How the data were processed

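RNA of 9 mouse liver libraries was prepared with Trizol and a TruSeq RNA kit, per the labels' protocols. The design text and the library protocol name different sequencers, Illumina and BGISEQ. The submitters' processing notes name HISAT, Cufflinks and the build mm9; the counting tool, strand setting and annotation were not given in the sources used here. For 25781 genes the authors deposited log2 values. These equal the log2 of reads divided by a library factor, plus 1: when inverted, 100% of values lay within 0.02 of an integer, and the factors equal median-of-ratios factors in 9 of 9 libraries. They assume that most genes do not change.

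With limma 3.58.1 in R 4.3.3, group means of log2(scaled count + 1) were modelled in all 9 libraries together (intensity trend, two-sided, Benjamini-Hochberg adjustment, threshold 0.05). The 20145 genes whose mean scaled count reached 1 were tested. The model was tested on simulated data. The 10 members and all lists were chosen with earlier results of these data known. Named genes were all members, up to 3 passing genes of each pathway list with the largest changes per comparison, and the 3 closest patterns per member with a mean of at least 20; Reln, Hand2, Lhx2, Myh11, Acta1, Actg2, Actc1, AY036118, Syn1, Tgfb2, Tgfb3, Col1a1, Col1a2, Col3a1, Timp2, Mmp2, Mmp13, Mmp14, Bgn and Dpt were named in addition after their values were seen. Some genes that this rule names are not reported here. Exon lengths and overlaps came from GENCODE vM21, which matched 25731 identifiers and left 50 unmatched. Replicates of a group differed by 3.44 to 4.10 times counting error (median over genes of the squared difference), so none was a duplicate. Alternatives were 3 scalings, 2 pseudocounts, 2 filters, the groups compared alone, a replicate block, limma voom on recovered reads, no intensity trend, and leaving out each library.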

Additional observations from a re-analysis of the deposited data

How the results depend on the processing

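The number of members that passed stayed within 1.5 times its value under every alternative run. It was 3 to 4 in β-CYP against control, 3 to 4 in selenite against β-CYP and 5 to 8 in selenite against control. The numbers of genes that passed ran from 2480 to 3346, 3897 to 4924 and 4931 to 5952 in these comparisons. Over member values, 560 kept their direction and side of the threshold, 21 lost the call, 9 gained one and 7 changed sign. The same was counted for the 37 genes picked from the pathway lists, only in comparisons where each was picked for passing. There 882 values kept both and 78 lost the call, and none could gain one. The other named genes were not counted here. All 7 sign changes belong to changes that did not pass. Lum in selenite against β-CYP went from -0.037 to 0.090 with equal library totals, 0.054 without β-CYP replicate 1 and 0.022 without β-CYP replicate 3, and ran from -0.19 to 0.054 over the left-out libraries. Lox in selenite against control went from 0.03 to -0.060 with quantile normalization, -0.96 without control replicate 1, -0.85 without selenite replicate 1 and -0.090 without selenite replicate 3, and ran from -0.96 to 1.05 over the left-out libraries. The cause was not tested. Lox had at most 23 reads in a library, and its SD among libraries (5.80, 8.56 and 6.62 scaled counts in the 3 groups) was above that of counting error (2.27, 3.89 and 2.29).

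Same-numbered libraries did not deviate together: the correlations of their deviations from the group means ran from -0.037 to 0.072. The numbers are therefore taken as names and not as pairs. With the replicate number as a block, 2956, 4481 and 5506 genes and 4, 3 and 8 members passed in the 3 comparisons.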

Other observations

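Keratin, tubulin and actin genes outside the stellate programme were followed in the same libraries. Of 12 other intermediate filament and cytoskeleton genes, 6 rose and none fell in β-CYP (median log2 change 0.24), and 8 rose and none fell from β-CYP to selenite (median 0.47). The 12 include Nes, which is also on the stellate identity list and is among those 8. With limma voom, 5 and 8 rose and 0 fell, and 0 were lower at an unadjusted p of 0.05. Krt8 and Krt18, the keratin pair of hepatocytes and bile duct cells, had 4903 ± 61.9 and 3400 ± 29.8 scaled counts in control (mean ± SD, n = 3). In β-CYP they had 7742 ± 128 and 4760 ± 187, and in selenite 15430 ± 156 and 12207 ± 185. Both rose at both steps (limma adjusted p = 7.36e-08 and 5.62e-06 in β-CYP, and 3.23e-09 for each in selenite). Synm, synemin, which binds desmin and vimentin filaments, had 53.6, 70.5 and 44.6 scaled counts in control, 125, 103 and 147 in β-CYP and 151, 177 and 189 in selenite, and rose in β-CYP by 1.15 ± 0.20 (limma adjusted p = 0.00341). Tubb6, a tubulin, rose at both steps, by 0.46 ± 0.079 and 1.41 ± 0.079 (limma adjusted p = 0.00323 and 1.02e-06). Actg1, cytoplasmic γ-actin, did not pass in β-CYP (log2 change -0.04, limma adjusted p = 0.920). It had 1572, 965 and 1351 scaled counts there and 3468, 3629 and 3681 in selenite (log2 change 1.5 ± 0.14, limma adjusted p = 4.03e-05). The part of pancreatic and muscle RNA in the selenite values of these cytoskeleton genes was not tested.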
